A study of Mus musculus with 14 samples.

Results

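Clu, Vwf, Sbspon, Epdr1 and Zg16 are secreted protein genes of an ageing signature of mouse hematopoietic stem cells (HSCs). The study had ranked this list of 50 genes in another experiment on HSCs taken straight from old and young mice. All 5 were found by gene symbol among the 1043 genes listed for HSCs recovered after transplantation. Matn4 and Col16a1 of the same signature, which also encode secreted proteins, are not among those genes and were not examined. The levels of the 5 transcripts are described here in old HSCs (oHSCs) and young HSCs (yHSCs) after 4 months in a young host. The authors had called all 1043 genes higher in oHSCs from these same libraries, so the choice of genes fixed that direction in advance. Whether the difference outlasted transplantation was therefore not tested independently. RNA-seq was available for 4 oHSC and 3 yHSC libraries.

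The oHSCs came from wild-type C57BL/6J mice of more than 18 months and the yHSCs from wild-type C57BL/6J mice of 2 months. Both were transplanted into lethally irradiated CD45.1 recipients of 2 months, along with helper bone marrow cells, and after 4 months donor-derived HSCs were sorted from the marrow of the hosts. The host, the irradiation and the passage through a transplant were thus shared by both groups. The donor ages are those that the methods give for C57BL/6J mice without naming these libraries. The reporting summary of the study states the ages differently, in weeks. The labels call the cells hematopoietic stem and progenitor cells and do not say whether libraries of a group came from separate recipients, so p-values measure only the spread between libraries. None of the 5 genes was among the 583 genes listed for the second experiment of the series, in which oHSCs carried a guide RNA against Clu (sgClu) or a control guide (sgCtrl), and it was not analysed further here.

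Secreted proteins enter the secretory pathway through a signal peptide at their amino terminus, a short hydrophobic stretch that is read as soon as it leaves the ribosome and is then cut off. HSCs sit in bone marrow niches where secreted chaperones, matrix proteins and lectins are made by many cell types, and a donor HSC can both make and receive them. Clu encodes clusterin, an abundant extracellular chaperone of plasma that also has intracellular forms. Vwf encodes von Willebrand factor, the large multimeric glycoprotein that tethers platelets to injured vessel walls, known in blood-forming tissue as a product of megakaryocytes and as a marker of platelet-biased HSCs. Sbspon encodes a matrix protein with somatomedin B and thrombospondin type 1 domains. Epdr1 encodes an ependymin-related glycoprotein found in lysosomes and outside cells. Zg16 encodes a lectin first found on zymogen granules of the pancreas and abundant in intestinal mucus.

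The first 25 codons of each coding sequence are shown because this is the stretch that holds or overlaps the signal peptide, the feature that places these genes in one group. They were read from the GENCODE M21 transcripts of build GRCm38 and run 5′ to 3′ on the coding strand, with the start codon in capitals.
Clu: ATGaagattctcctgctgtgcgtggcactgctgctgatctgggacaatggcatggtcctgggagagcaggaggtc
Vwf: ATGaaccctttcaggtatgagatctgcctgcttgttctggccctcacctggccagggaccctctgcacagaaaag
Sbspon: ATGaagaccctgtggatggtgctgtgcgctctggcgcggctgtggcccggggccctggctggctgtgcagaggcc
Epdr1: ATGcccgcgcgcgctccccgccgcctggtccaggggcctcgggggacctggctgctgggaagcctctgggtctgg
Zg16: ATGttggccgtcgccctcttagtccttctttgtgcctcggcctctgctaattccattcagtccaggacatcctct

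A codon with T at its second base encodes a hydrophobic residue (phenylalanine, leucine, isoleucine, methionine or valine), so the share of such codons after the start codon describes how hydrophobic the start is. In Clu this share was 54.2% of 24 codons, a value reached or passed by 3.0% of 21354 mouse coding genes. It was 33.3% in both Vwf and Zg16, 29.2% in Sbspon and 25% in Epdr1, against a median of 25% over all coding genes. For Epdr1 the start of the coding sequence was therefore no richer in such codons than the median gene. In the rest of the coding sequence the shares were 26.7% for Clu, 23.8% for Vwf, 18.8% for Sbspon, 25.6% for Epdr1 and 25.4% for Zg16.

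The 5 genes lie on 5 chromosomes and differ greatly in size. Clu (ENSMUSG00000022037.15) is on the plus strand at chr14:65968483-65981547, with 9 exons and a transcript of 1810 bases. Vwf (ENSMUSG00000001930.17) is on the plus strand at chr6:125546774-125686679, with 52 exons and 8834 bases. Sbspon (ENSMUSG00000032719.4) is on the minus strand at chr1:15853862-15892722, with 5 exons and 2748 bases. Epdr1 (ENSMUSG00000002808.7) is on the minus strand at chr13:19591706-19619927, with 3 exons and 2363 bases. Zg16 (ENSMUSG00000049350.6) is on the minus strand at chr7:127050156-127087328, with 3 exons and 636 bases, the shortest transcript of the group.

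Levels are given in FPKM, the unit the deposited values are taken to have, in which the fragments of a gene are scaled to the length of its transcript and to the size of the library. The 1043 genes are those that the authors had called higher in oHSCs from these same libraries, so no gene without that call entered a test. The p-values, adjusted or not, are therefore no independent evidence of a difference or of its direction. The adjustment ran over these chosen genes alone, so an adjusted p is not a false discovery rate over all genes measured. Summed over the listed genes the values came to 71628 to 84123 FPKM in the oHSC libraries and 42199 to 54607 FPKM in the yHSC libraries, which are not depths. The depth of the libraries is unknown. Log2 fold changes are differences of mean log2(FPKM + 1), a scale that understates the change of low genes. Here a gene was called when the unadjusted p of limma was under 0.05 and the log2 fold change was over 0.5. The authors made their calls with DESeq2. A listed gene not called here, such as Clu or Vwf, had still been called by them. In the fit used here 1006 of the 1043 genes had a positive log2 fold change, and 10 were called lower in oHSCs. Why these genes differ from the authors' calls was not tested. In sorted cells measured in bulk, fewer cells of a type and less RNA per cell cannot be told apart.

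Epdr1 had the highest mean level of the 5 genes in both groups and was the only 1 of them whose oHSC and yHSC libraries did not overlap. It measured 10.2, 10.6, 10.2 and 8.996 FPKM in oHSC replicates 1 to 4 and 5.07, 7.39 and 3.84 FPKM in yHSC replicates 1 to 3. Every oHSC library lay above every yHSC library, with 1.61 FPKM between the nearest of them. The oHSC mean was 9.99 ± 0.689 FPKM (SD, n = 4) and the yHSC mean 5.43 ± 1.80 FPKM (SD, n = 3), a ratio of 1.84. The log2 fold change was 0.81 (SE 0.24, 95% interval 0.29 to 1.33), with a Benjamini-Hochberg adjusted p of 0.0286 in limma. A two-sided exact permutation test gave p = 0.0571 for the group means, the smallest that 4 against 3 libraries allow. Epdr1 also varied least among oHSCs, with a coefficient of variation of 6.90%, against 20.3% to 63.9% for the other 4 genes. Its call was lost when libraries were rescaled to one another, since the log2 fold change fell to 0.070 to 0.22 under 3 scalings.

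Zg16 had the largest log2 fold change of the group. It measured 9.14, 5.56, 7.24 and 7.04 FPKM in oHSC replicates 1 to 4 and 6.44, 0.993 and 1.05 FPKM in yHSC replicates 1 to 3. The yHSCs were split, since replicate 1 stood at the level of the oHSCs and above oHSC replicate 2, while the other 2 yHSC libraries were lower than every oHSC library. The means were 7.25 ± 1.47 FPKM (SD, n = 4) and 2.83 ± 3.13 FPKM (SD, n = 3), a ratio of 2.56. The log2 fold change was 1.38 (SE 0.42, 95% interval 0.44 to 2.33), with a Benjamini-Hochberg adjusted p of 0.0328 in limma and p = 0.114 in the exact permutation test. Without yHSC replicate 1 the log2 fold change was 2.01. With the shared spread of limma set aside, or with libraries scaled by median of ratios or by TMM (trimmed mean of M values), the unadjusted p rose above its limit.

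Sbspon was near the bottom of the measured range, and was listed at 0 in 2 of the 3 yHSC libraries. It measured 2.68, 1.80, 2.65 and 0.442 FPKM in oHSC replicates 1 to 4 and 0.921, 0 and 0 FPKM in yHSC replicates 1 to 3. In 3 oHSC libraries it lay above every yHSC library, and oHSC replicate 4 was lower than yHSC replicate 1. The means were 1.89 ± 1.05 FPKM (SD, n = 4) and 0.307 ± 0.532 FPKM (SD, n = 3). The log2 fold change was 1.13 (SE 0.37, 95% interval 0.30 to 1.95), with a Benjamini-Hochberg adjusted p of 0.0404 in limma and p = 0.114 in the exact permutation test. With a pseudocount of 0.1 in place of 1 the log2 fold change was 2.95, so its size for a gene at such levels rests on that choice.

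Sbspon is also the only 1 of the 5 genes whose exons overlap another annotated gene. Gm37509, a gene model with 1 exon on the plus strand at chr1:15853331-15856499, covers all 2001 bases of the last Sbspon exon, which is 72.8% of the transcript. The library kits do not mark strand, so reads from Sbspon and from Gm37509 in that stretch cannot be told apart, and how the authors' counting treated them is not given in the sources used here. Gm37509 itself is not among the 1043 genes.

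**Figure D1:**
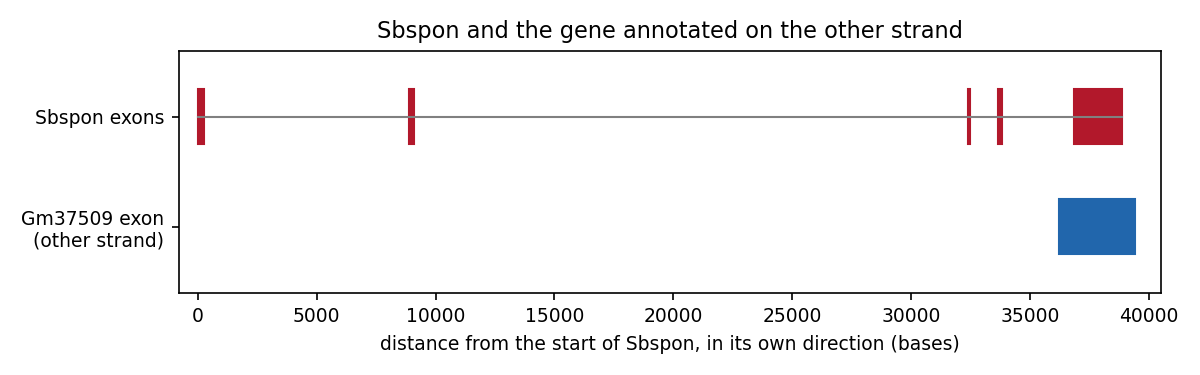
Exons of Sbspon (red boxes joined by a line) and of Gm37509 on the other strand (blue box), drawn to scale along the distance in bases from the start of Sbspon. The last and longest Sbspon exon, 2001 of 2748 transcript bases, lies inside Gm37509.

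Clu had the widest relative spread among the oHSC libraries, with a coefficient of variation of 63.9%, and was not called over all 7 libraries without the replicate block. It measured 8.16, 4.10, 1.30 and 9.03 FPKM in oHSC replicates 1 to 4 and 4.18, 1.64 and 0.717 FPKM in yHSC replicates 1 to 3. The groups overlapped, with oHSC replicates 1 and 4 above every yHSC library, oHSC replicate 2 just under yHSC replicate 1, and oHSC replicate 3 also under yHSC replicate 2. The means were 5.65 ± 3.61 FPKM (SD, n = 4) and 2.18 ± 1.79 FPKM (SD, n = 3), a ratio of 2.60. The log2 fold change was 1.001 (SE 0.52, 95% interval -0.16 to 2.16), with a Benjamini-Hochberg adjusted p of 0.108 in limma and p = 0.286 in the exact permutation test.

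The labels state no pairing, and libraries with the same replicate number were taken as pairs by a rule drawn from these same values. Their deviations correlated over genes at r = 0.41, 0.16 and 0.16 for replicates 1 to 3. The unpaired oHSC replicate 4 reached 0.19 with yHSC replicate 3. Within each number Clu was higher in the oHSC library, by 1.95-fold in replicate 1, 2.51-fold in replicate 2 and 1.81-fold in replicate 3. With the replicate number as a block in limma, Clu was called, with a log2 fold change of 0.73 (SE 0.22) and a Benjamini-Hochberg adjusted p of 0.0277. Over all 15 alternative settings its adjusted p ran from 0.0277 to 0.709, and it was called in 3 of them, the other 2 being the fits without oHSC replicate 3 and without yHSC replicate 1. The blocked value rests on 3 pairs, because oHSC replicate 4, the library with the highest Clu level, has no yHSC partner and adds nothing to the estimate.

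Vwf had the smallest log2 fold change of the 5 genes and was not called. It measured 1.25, 3.29, 2.13 and 2.40 FPKM in oHSC replicates 1 to 4 and 1.44, 0.483 and 1.73 FPKM in yHSC replicates 1 to 3. In 3 oHSC libraries it lay above every yHSC library, while oHSC replicate 1 was lower than yHSC replicates 1 and 3. The means were 2.27 ± 0.842 FPKM (SD, n = 4) and 1.22 ± 0.653 FPKM (SD, n = 3), a ratio of 1.86. The log2 fold change was 0.57 (SE 0.29, 95% interval -0.08 to 1.22), with a Benjamini-Hochberg adjusted p of 0.105 in limma and p = 0.171 in the exact permutation test. It stayed uncalled with the block, with a log2 fold change of 0.54 (SE 0.34), and was called in 2 of 15 settings, without oHSC replicate 1 and without yHSC replicate 3.

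**Figure D2:**
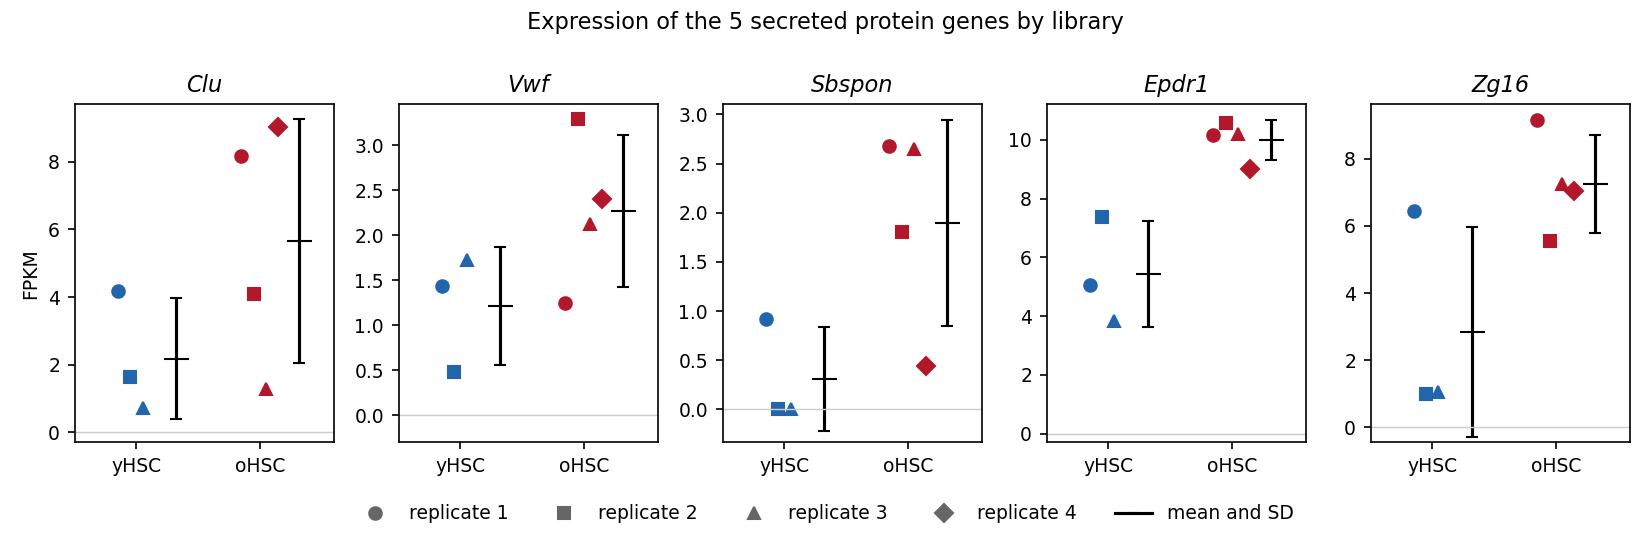
Level of each gene in FPKM (vertical axes, one scale per gene) in the 3 yHSC (blue) and 4 oHSC (red) libraries, with one symbol per replicate number and the mean and SD of each group in black. Epdr1 shows no overlap between groups, yHSC replicate 1 lies among the oHSC values for Zg16, and Sbspon is listed at 0 in 2 yHSC libraries.

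Across the group, 3 of the 5 genes (Sbspon, Epdr1 and Zg16) were called higher in oHSCs. Of all 1043 listed genes 62.5% were called, so a share of 3 in 5 is near the background. The same 3 genes passed when the p limit was applied to the adjusted value, where 37.3% of the listed genes did. With the replicate block 4 of the 5 were called, Clu being added, against 72.1% of the listed genes. Complete separation of the groups was seen for 1 of the 5 genes, Epdr1, and for 49.7% of the listed genes. Of the 15 comparisons of a gene within a replicate number, 14 were higher in the oHSC library, the exception being Vwf in replicate 1. The matching share of all listed genes was not computed. Of the 1043 listed genes 1006 had a positive log2 fold change, so this count says nothing particular about the 5 genes.

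The median log2 fold change of the 5 genes was 1.001, beside 0.70 over all listed genes. Zg16 stood highest, with 7.19% of the listed genes showing a larger log2 fold change, followed by Sbspon with 13.6%, Clu with 19.3%, Epdr1 with 36.8% and Vwf with 70.3%. Without the block, the 95% intervals of all 5 genes held the value 0.70. With the block the median of the listed genes was 0.77, and the interval of Sbspon, 0.85 to 2.02, lay above it, while those of the other 4 held it. The blocked log2 fold change of Sbspon, 1.43, was the same as without oHSC replicate 4, its lowest oHSC library. That library has no yHSC partner and adds nothing to the blocked estimate, which also rests on a pairing inferred from the data.

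**Figure D3:**
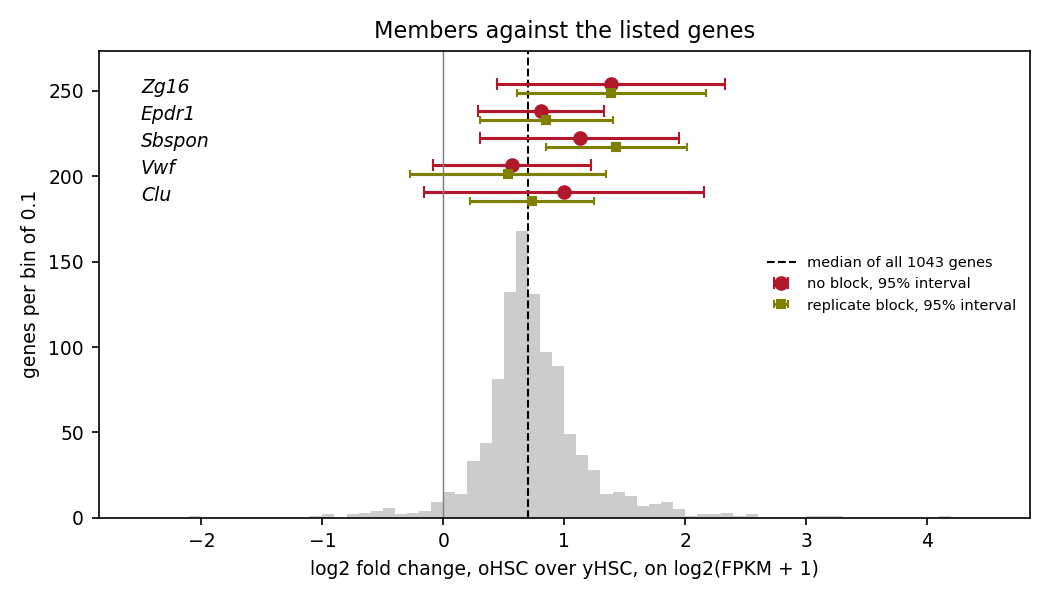
Histogram of the log2 fold change (oHSC over yHSC, on log2(FPKM + 1), horizontal axis) of all 1043 listed genes in bins of 0.1, with the 5 genes above it as points with 95% intervals, without (red) and with (olive) the replicate block. The dashed line marks the median of all genes, 0.70, which lies inside each red interval. The red interval of Clu holds 0 and its blocked interval does not, but the block rests on a pairing inferred from these data.

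The listed genes were all chosen as higher in oHSCs, and scaling the libraries on them took out most of the difference between groups. The median log2 fold change of all genes moved by -0.63 under median-of-ratios scaling, by -0.64 under TMM scaling and by -0.51 under scaling to column totals. Relative to that median, Zg16, Sbspon and Clu lay above it under each of the 3 scalings. Zg16 lay 0.68 above the median as deposited and 0.71 to 0.72 above it under the 3 scalings, and Sbspon lay 0.43 above it as deposited and 0.73 to 0.81 above it when scaled. On log2(FPKM + 1), values near 0 move little when libraries are rescaled. Under TMM the log2 fold change of Sbspon went from 1.13 to 0.86, and that of Epdr1 from 0.81 to 0.070. How far the larger distance of Sbspon when scaled rests on this property of the scale was not tested. Clu lay 0.30 above the median as deposited and 0.36 to 0.38 when scaled. Epdr1 lay 0.11 above it as deposited and 0.014 to 0.037 when scaled, while Vwf lay at -0.13 from the median as deposited and at -0.018 to -0.0057 when scaled. Genes not called by the authors were not used here, so which of these scales describes the cells was not tested.

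**Figure D4:**
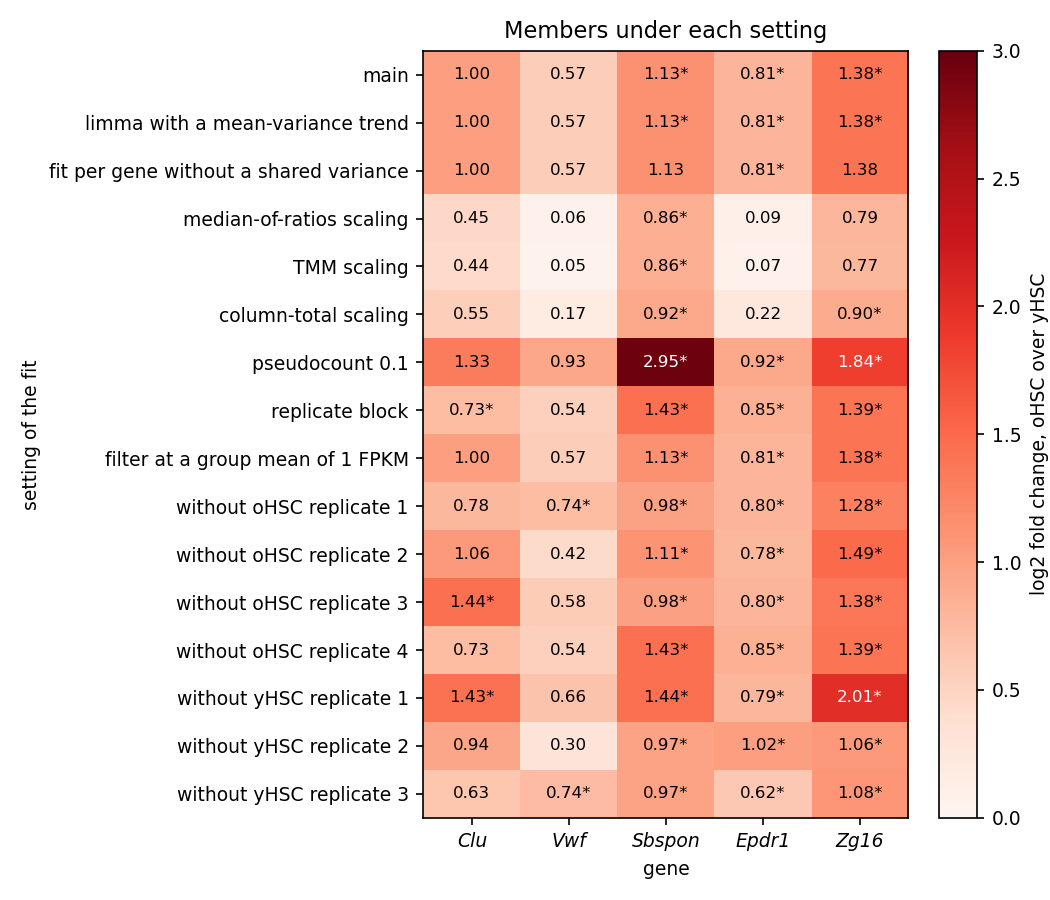
Log2 fold change (oHSC over yHSC) of each gene (columns) in the fit as reported (top) and under each other setting (lower cells), with darker red for larger values and a star where the gene was called. Sbspon keeps its star in all settings shown but 1, while Epdr1 loses it under the 3 scalings of the libraries.

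As FPKM is per length, the levels of the genes may be set side by side. By mean level the order was Epdr1, Zg16, Clu, Vwf and Sbspon in oHSCs, and the same in yHSCs. The ranges of every neighbouring pair in that order overlapped in both groups. Within oHSC libraries Epdr1 was above Zg16 in 4 of 4, Zg16 above Clu in 3 of 4, Clu above Vwf in 3 of 4, and Vwf above Sbspon in 2 of 4. Within yHSC libraries the first 3 of these orders held in 2 of 3 libraries each, and Vwf was above Sbspon in 3 of 3. In single libraries the top gene was Epdr1 in 5 of 7, Clu in oHSC replicate 4 and Zg16 in yHSC replicate 1.

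Transcript length changes how many fragments stand behind these levels. If the deposited values are FPKM, a unit their headers do not name, multiplying them by the annotated transcript length in kilobases gives FPM. FPM stands for the fragments of a gene scaled to library size alone. The means for oHSCs and yHSCs were 23.6 and 12.8 FPM for Epdr1, 20.02 and 10.8 for Vwf, 10.2 and 3.94 for Clu, 5.21 and 0.844 for Sbspon and 4.61 and 1.80 for Zg16. Vwf, near the bottom by level, was thus behind only Epdr1 by fragments, while Zg16, behind only Epdr1 by level, had the fewest in oHSCs. The Zg16 values above rest on 0.631 to 5.82 FPM in any library. The authors' own transcript lengths are not given in the sources used here.

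The replicates did not rank alike for the 5 genes. Among the oHSCs, replicate 1 was highest for Sbspon and Zg16 and lowest for Vwf, replicate 2 was highest for Vwf and Epdr1, and replicate 4 was highest for Clu and lowest for Sbspon and Epdr1. Among the yHSCs, replicate 1 was highest for Clu, Sbspon and Zg16, replicate 2 for Epdr1 and replicate 3 for Vwf. No single library was the highest of its group for all 5 genes.

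The genes whose profile was most like each member were searched among 718 listed genes with a mean of at least 1 FPKM, by Pearson's r of log2(FPKM + 1) over the 7 libraries. These values describe 7 points in which both genes carry the same group difference and the same libraries, and they carry no test. For Clu the nearest were Kcne3 (a potassium channel subunit, r = 0.90), Mcpt8 (a basophil protease, r = 0.90) and Igsf6 (an immunoglobulin superfamily member, r = 0.89). Their r over deviations from the group means, which leaves out the group difference, was 0.86, 0.91 and 0.87. For Vwf they were Hspa1b (an inducible heat shock protein, r = 0.96), Eya2 (a transcriptional coactivator with phosphatase activity, r = 0.94) and Ermap (an erythroid membrane protein, r = 0.92). For Sbspon they were Prxl2a (r = 0.98), Rhd (a red cell membrane protein, r = 0.98) and Eif2b1 (a translation initiation factor subunit, r = 0.98). For Epdr1 they were Cnpy4 (r = 0.99), Lipt1 (a lipoyl transferase, r = 0.98) and Thoc6 (a subunit of the mRNA export complex THO, r = 0.98). For Zg16 they were Slc7a7 (an amino acid transporter, r = 0.97), Ralb (a small GTPase, r = 0.96) and Tmub1 (r = 0.94). No gene stood among the 3 nearest of more than 1 member. The number of genes with r over 0.9 was 86 for Epdr1, 64 for Sbspon, 24 for Zg16, 5 for Vwf and 2 for Clu.

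Of the other 45 genes of the ageing signature, 12 were among the listed genes and 9 of these were called higher in oHSCs, with none lower, beside 62.5% of all listed genes. Their median log2 fold change was 0.72, beside 1.001 for the 5 secreted protein genes and 0.70 for all listed genes. The study ranked the signature in other libraries but the table was chosen on these, so the direction of these counts is not independent evidence. The called genes were Ramp2 (a receptor activity-modifying protein, log2 fold change 2.25), Gpr183 (an oxysterol receptor, 1.71), Klrb1c (a lectin-like receptor, 1.198), Gstm2 (a glutathione transferase, 1.14), Enpp5 (0.94), Slamf1 (CD150, a surface marker of long-term HSCs, 0.75), Gem (a small GTP-binding protein, 0.69), Aldh3a1 (an aldehyde dehydrogenase, 0.62) and Ehd3 (an endocytic protein, 0.57). Art4, Tdrd9 and Cd38, the NAD-consuming ectoenzyme, measured 0.62, 0.49 and 0.48 and were not called. With the replicate block 9 of the 12 were again called, but Slamf1 (0.67) lost its call and Cd38 (0.60) gained one. Under median-of-ratios and TMM scaling the value of Gem turned to -0.11 and -0.13.

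**Figure D5:**
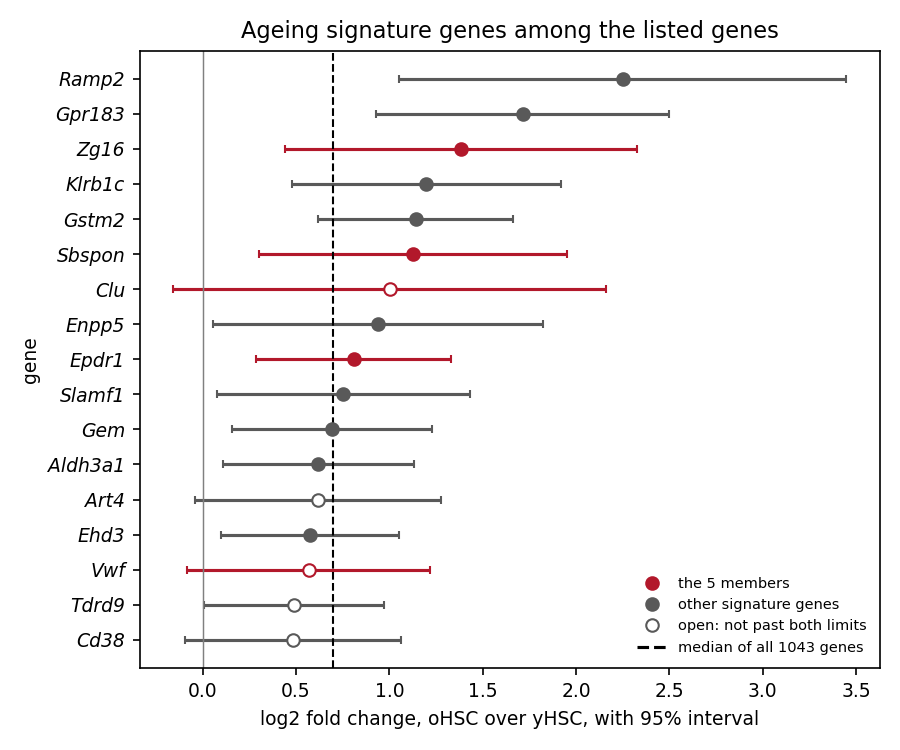
Log2 fold change (oHSC over yHSC, horizontal axis) with its 95% interval for the 17 ageing signature genes among the listed genes, the 5 secreted protein genes in red and the other 12 in grey, with open symbols for genes not called. Zg16 is near the top of the order and Vwf near the bottom, and the dashed line marks the median of all listed genes, 0.70.

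Genes tied to each member by known function were few among the listed ones, and their counts called stand beside the 62.5% of all listed genes. Of 20 partners and receptors of clusterin 2 were listed and both were called. Apoe, an apolipoprotein that shares receptors and lipid particles with clusterin, measured 126 to 238 FPKM in oHSCs and 54.7 to 113 FPKM in yHSCs, with a log2 fold change of 0.94 (SE 0.32). Its call was lost under the 3 scalings, at 0.10 to 0.28, and without yHSC replicate 3, at 0.62. Hspa5, the chaperone of the endoplasmic reticulum, had a log2 fold change of 0.65 that turned to -0.17, -0.19 and -0.014 under median-of-ratios, TMM and column-total scaling. Of 22 genes for storage, binding and cleavage of von Willebrand factor 2 were listed and both were called. Gp9, a subunit of its platelet receptor, measured 7.18 to 14.95 FPKM in oHSCs and 1.64 to 8.74 FPKM in yHSCs, with a log2 fold change of 1.21 (SE 0.41). Its call was lost under the 3 scalings, at 0.51 to 0.66, without yHSC replicate 3, at 0.74, and in the fit per gene. Mmrn1, multimerin 1 of platelet granules, measured 7.60 to 10.5 FPKM in oHSCs and 2.91 to 4.50 FPKM in yHSCs without overlap, a log2 fold change of 0.99 (SE 0.23), which was 0.28 to 0.43 under the 3 scalings, where it was not called.

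Of 19 proteins with thrombospondin repeats or somatomedin B domains, only Ccn1 was listed. It overlapped between groups and was not called, with a log2 fold change of 0.82. Of 15 zymogen granule proteins and secreted lectins 1 was listed and called, Lgals9 or galectin 9, with a log2 fold change of 0.96. It was not called under the 3 scalings, at 0.12 to 0.29, without yHSC replicate 3, at 0.57, or in the fit per gene. Of 28 genes of the secretory pathway 3 were listed and 2 called, Hspa5 and the disulfide isomerase Pdia4, whose log2 fold change of 0.74 turned to -0.027 and -0.047 under median-of-ratios and TMM scaling. No gene of these lists was called lower.

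Markers of other cell types were also among the listed genes, all of which were chosen as higher in oHSCs, and their counts called stand beside the 62.5% of all listed genes. The methods state that lineage-positive cells were removed with magnetic beads and HSCs then sorted by flow cytometry, steps meant to take out mature blood cells. The median log2 fold change was 1.45 for the mast cell and basophil, 1.05 for the erythroid, 0.99 for the megakaryocyte, 0.83 for the long-term HSC, 0.77 for the stromal, 0.66 for the neutrophil and 0.61 for the endothelial markers, beside 0.70 for all listed genes. Of 23 megakaryocyte and platelet markers, of interest beside Vwf and Clu, both of which platelets carry, 7 were listed and 6 called, and their summed level was 296 to 523 FPKM in oHSCs and 188 to 259 FPKM in yHSCs. Of 21 endothelial markers 3 were listed and called, with sums of 11.3 to 35.7 and 4.55 to 9.99 FPKM, and of 15 mesenchymal stromal markers 1 was listed and called, with 10.5 to 23.3 and 5.18 to 12.5 FPKM. Of 15 mast cell and basophil markers 8 were listed and called, with sums of 497 to 796 and 233 to 370 FPKM, and Cma1, Tpsb2, Tpsab1 and Mcpt4 were listed at 0 in all 3 yHSC libraries. All 5 listed neutrophil granule markers of 13 were called, with sums of 7960 to 11249 and 4095 to 5111 FPKM. Of 14 erythroid markers 7 were listed and 6 called, with sums of 1535 to 2429 and 814 to 1125 FPKM. Of 18 long-term HSC markers 2 were listed and both were called, with sums of 11.8 to 20.7 and 4.42 to 11.5 FPKM. The part of such cells in the values of the 5 genes was not tested.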

How the data were processed

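RNA was measured with SMART-Seq v4 cDNA and Nextera XT libraries. The authors trimmed reads with TrimGalore, aligned them to mm10 (GRCm38 in the submitters' processing notes) with Hisat2, counted with FeatureCounts and called genes with DESeq2. The annotation and the step from counts to the deposited FPKM values are not given in the sources used here. The headers name no unit, and TPM cannot be told apart from FPKM. All value columns could be mapped to samples (0 were not).

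Log2(FPKM + 1) values of all 1043 genes were fitted with limma 3.58.1 (R 4.3.3), without a filter, as oHSC against yHSC. A gene was called at an unadjusted two-sided p under 0.05 and a log2 fold change over 0.5, the limits of the study's methods. Adjusted p-values are Benjamini-Hochberg over the table. Exact permutation tests of group means (SciPy 1.17.1) ran over 35 splits and doubled the smaller tail. The fit was tested on simulated data.

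Same-numbered oHSC and yHSC libraries were correlated in their deviations from the group means over genes (r = 0.41, 0.16 and 0.16 for replicates 1 to 3), so replicate numbers were taken as pairs, a rule based on the data since the labels state no pairing. oHSC replicate 4 correlated at 0.19 with yHSC replicate 3.

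Alternatives were limma with a trend of variance on mean, separate variances for each gene, 3 scalings on the listed genes (median of ratios, trimmed mean of M values and column totals), a pseudocount of 0.1, only genes reaching 1 FPKM in a group mean, the replicate block, other limits and leaving out each library. Named genes were the 5 members, called genes of the functional lists and the 3 nearest genes of each member. The result of 1 functional list is not reported here. The members and lists were chosen with earlier results of these data known. Values for sgClu and sgCtrl libraries were not used, as they hold no member.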

Additional observations from a re-analysis of the deposited data

Results flagged for a closer look

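By Dixon's rule no secreted protein gene had an oHSC library flagged as apart from the other 3, though 4 libraries give this rule little power. Sbspon measured 0.442 FPKM in oHSC replicate 4, against 1.80 to 2.68 FPKM in the others. Its log2 fold change was 1.13 with that library and 1.43 without it. The largest gap to the next library, as a share of the whole range, was 0.735, for Epdr1 in oHSC replicate 4, under Dixon's critical value for 4 samples. Among the 36 genes examined, a gap above that value was seen for 2. Ramp2 measured 20.4 FPKM in oHSC replicate 2 against 2.55, 4.54 and 3.18 FPKM in the others (0.888 of the range). Eif2b1, one of the genes nearest to Sbspon, measured 48.2 FPKM in oHSC replicate 4 against 78.2, 74.6 and 76.3 FPKM (0.879 of the range). Chance alone gives about 1 such gap in 20 groups.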

How the results depend on the processing

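The direction of each of the 5 genes was the same under all 15 alternatives, and calls were not. The genes were chosen as higher in oHSCs. The variance trend, the separate variances and the 1 FPKM filter leave the log2 fold change unchanged, so they could not turn a sign. Under TMM scaling the log2 fold change fell to 0.051 for Vwf and 0.070 for Epdr1. Of the listed genes 652 were called higher and 10 lower, against 124 and 54 under median-of-ratios scaling, 123 and 57 under TMM, 151 and 40 under column totals, and 197 and 2 at a log2 fold change limit of 1, and 389 were called higher at the adjusted p limit. Leaving out 1 library gave 405 (without yHSC replicate 3) to 655 called higher. Of the members, 3 were called, against 1 in the fit per gene and under median-of-ratios and TMM scaling. Of the other signature genes 9 were called, against 3, 3 and 5 under the 3 scalings in the same order, 5 at the adjusted p limit and 4 at the fold limit of 1.

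Clu passed with the replicate block (0.73), and leaving out 1 library gave 0.63 to 1.44, passing without oHSC replicate 3 (1.44) and without yHSC replicate 1 (1.43). Vwf ranged from 0.30 to 0.74, passing without oHSC replicate 1 (0.74) and without yHSC replicate 3 (0.74). Sbspon (1.13) and Zg16 (1.38) lost their call in the fit per gene. Zg16 lost it under median-of-ratios (0.79) and TMM (0.77) scaling. Epdr1 lost it under median-of-ratios (0.089), TMM (0.070) and column-total (0.22) scaling, and at the fold limit of 1 (0.81). The scalings were set on genes chosen as higher in oHSCs. The cause of the other changes was not tested. The block changed no other member's call.

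Of the 31 other genes followed, 3 kept their call under median-of-ratios scaling, 20 lost it with the same sign and 8 turned sign. The numbers were the same under TMM. Under column totals 5 kept their call, 24 lost it with the same sign and 2 turned sign. Every gene whose sign turned also lost its call. With the block 4 lost it (Slamf1, Hspa1b, Eya2 and Ermap). Under median-of-ratios and TMM scaling the sign turned for Gem (-0.11, -0.13), Hspa5 (-0.17, -0.19), Pdia4 (-0.027, -0.047), Mcpt8 (-0.28, -0.30), Eya2 (-0.047, -0.063), Eif2b1 (-0.016, -0.038), Cnpy4 (-0.12, -0.14) and Ralb (-0.014, -0.031), and under column totals for Hspa5 (-0.014) and Mcpt8 (-0.13). The filter at a group mean of 1 FPKM left no value for Aldh3a1. The planned comparison of sgClu with sgCtrl gave no value, as its genes include no member.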
